A study of Mus musculus with 2 samples.

Results

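Pomc and 3 genes that act on it in the pituitary, Tbx19, Crhr1 and Avpr1b, were followed across the cell classes of the mouse gland at 2 ages. They were chosen by name, as 4 of the 32285 genes listed in the files, by a rule that uses no measured value. Earlier results of these data were known when they were chosen. Whole pituitary glands came from male C57BL/6 mice, an inbred laboratory strain, at 2 months (young) and 20 months (old). At each age 10 glands were pooled before dissociation into a single suspension, which gave 1 droplet-based single-cell RNA library with reads at the transcripts' 3′ ends. No treatment or genetic change is given for either age. The comparison asks how the transcripts of the pituitary stress-hormone axis differ between cell types and between the ages. With 1 library per age there is no replicate check and no test, so differences between mice within a pool cannot be seen.

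Pomc encodes pro-opiomelanocortin, a prohormone that convertases cut into different peptides in different cells. Corticotrophs of the anterior lobe release mainly corticotropin (ACTH), which drives glucocorticoid output of the adrenal gland, while melanotrophs of the intermediate lobe process the same precursor further to alpha-melanocyte-stimulating hormone and beta-endorphin. Tbx19, also called Tpit, encodes the T-box transcription factor that the Pomc lineages need to mature and to transcribe Pomc. Crhr1 encodes the receptor for corticotropin-releasing hormone, which acts through the Gs protein and cyclic AMP, and Avpr1b the pituitary vasopressin receptor, which acts through Gq and phospholipase C. Glucocorticoids feed back on corticotrophs through the glucocorticoid receptor, and dopamine from the hypothalamus restrains melanotrophs through the D2 receptor.

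The stretch of 250 bases just upstream of the Pomc start site was searched for motifs of several of the transcription factors counted later. Sequence further upstream was not searched, so a motif missing here may lie there. It lies on the plus strand at chr12:3954695-3954944 in the GRCm38.p6 build of the RefSeq promoter table, a build other than the one the reads were aligned to. That table held 3 of the 4 genes, with Tbx19 on chromosome 1 and Crhr1 on chromosome 11, and Avpr1b is not shown. Read from 5′ to 3′, with the letters of 2 searched motifs in capitals, the sequence reads as follows.
Pomc upstream: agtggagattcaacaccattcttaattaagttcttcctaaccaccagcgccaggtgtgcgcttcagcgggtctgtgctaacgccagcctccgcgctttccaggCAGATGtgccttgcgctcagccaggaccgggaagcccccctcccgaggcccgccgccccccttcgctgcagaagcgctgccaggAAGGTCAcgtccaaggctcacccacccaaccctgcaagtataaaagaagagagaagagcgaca
The first capitals, 147 bases before the start, are the letters CATCTG read on the minus strand, the core of the E-box bound by neurogenic factors such as the product of Neurod1. The later ones, 63 bases before the start, are AAGGTCA, the element of orphan nuclear receptors. Both strands were searched, and these motifs do not overlap. CATCTG was present in 14.4% and AAGGTCA in 4.08% of 32851 promoter windows of the same length. The letters TCACACC (T-box), TAATCC (Pitx factors) and TGACTCA (AP-1), present in 3.33%, 6.25% and 4.46% of windows, were not found in this stretch, and none of the 5 was found in the windows of Tbx19 and Crhr1. Matches are letters in a window and not measured binding sites.

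Transcripts were counted by UMI, a barcode that marks each captured molecule once, and the totals were 154510099 (young) and 138427393 (old). After filters on UMIs, genes and mitochondrial share and removal of likely doublets, 8531 young and 9017 old barcodes were kept. A single cluster of 1 young and 5549 old barcodes had the profile of empty droplets, meaning barcodes with no more than 100 UMIs, at r = 0.997 over genes. Genes are not replicates. The empty-droplet profile used here sums both libraries, with 4237840 young and 26933036 old UMIs. This cluster is called the free RNA cluster and was kept apart. Among kept barcodes the old library therefore stands apart from the young one, and the values of the 4 genes are set beside empty droplets. Barcodes of 500 to 900 UMIs are given as another reference, since they held 40596018 young and 11577567 old UMIs and lie between empty droplets and cells. Of the kept barcode sequences 26 occurred in both libraries, and 1 of them was corticotroph-like or melanotroph-like in both.

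Corticotroph-like and melanotroph-like cells were found by clustering without the 4 genes and named from other markers. There were 1257 young and 308 old corticotroph-like cells, at medians of 7099 and 8808.5 UMIs. Melanotroph-like cells numbered 44 and 154, at medians of 4556 and 6478 UMIs. The melanotroph-like cluster was led by Pax7, the factor that sets the melanotroph fate, and Pcsk2, the convertase that cuts ACTH further. Corticotroph-like cells fell into 3 clusters. The largest held 807 young and 167 old cells, another of 274 and 98 cells was rich in Malat1, a nuclear RNA, at medians of 12.2% and 12.9% of UMIs, and the last of 176 and 43 cells was poor in it, at 0.0929% and 0.135%. Levels are given as CPM, counts scaled to a common total of the UMIs left without 7 hormone genes and 13 mitochondrial genes, or as a percent of all UMIs. Intervals in parentheses are 95% intervals that cover counting error only.

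Pomc was the most abundant of the 4 transcripts, and its level in corticotroph-like cells was higher in the old library. It took 3.59% of all UMIs of young corticotroph-like cells (323981 Pomc UMIs) and 8.83% of old ones (302710 Pomc UMIs). On the CPM scale these levels were 41977 and 106880, an old over young ratio of 2.55 (2.53 to 2.56). Pomc was the member with a difference of at least 2-fold in this class. Of 9278 genes with at least 50 UMIs in the library where they were higher, 1.25% were higher by at least 2-fold in old corticotroph-like cells and 1.76% were lower. The Pomc ratio was 2.63 in the largest corticotroph-like cluster, 2.96 in the Malat1-rich and 2.71 in the Malat1-poor one, so it was above 2-fold in each. Empty droplets differed in the same direction and by more, with Pomc at 1.14% of young and 4.51% of old UMIs and a CPM ratio of 3.33 (3.30 to 3.36). After free RNA was subtracted from the cells in proportion to Gh, the corticotroph-like ratio was 2.52, or 2.51 with barcodes of 500 to 900 UMIs as the profile.

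In melanotroph-like cells the level of Pomc was nearly the same in the libraries and slightly lower in the old one. It took 9.09% (23640 Pomc UMIs) of young and 8.19% (109280 Pomc UMIs) of old UMIs, at 119616 and 105514 CPM, a ratio of 0.882 (0.870 to 0.895). This direction turned to 1.04 with a mitochondrial limit of 25%, which kept 127 young and 257 old melanotroph-like cells, so it is not a stable difference. No member with UMIs in this class differed by 2-fold or more. Of 2479 genes with at least 50 UMIs in the library where they were higher, 6.9% were higher and 0.202% lower by that amount. Few lower genes can pass this filter, since the young CPM total was 197632 UMIs against 1035688 in the old library. Crhr1, with 2 and 18 UMIs, does not pass it. Of 8593 genes with at least 20 UMIs over both libraries, 516 were higher and 406 lower by at least 2-fold. Pomc was lower and Tbx19 and Crhr1 were higher, beside 45.2% of 8593 genes higher and 54.8% lower. Set against corticotroph-like cells of the same library, the Pomc level of melanotroph-like cells was 2.85 times as high (2.81 to 2.89) in the young library and 0.987 times as high (0.980 to 0.994) in the old one. The young difference kept its direction under the 17 alternative settings, at 2.17 to 3.47. The old ratio moved from 0.913 to 1.21 over them, with 7 above 1 and 10 below.

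**Figure D1:**
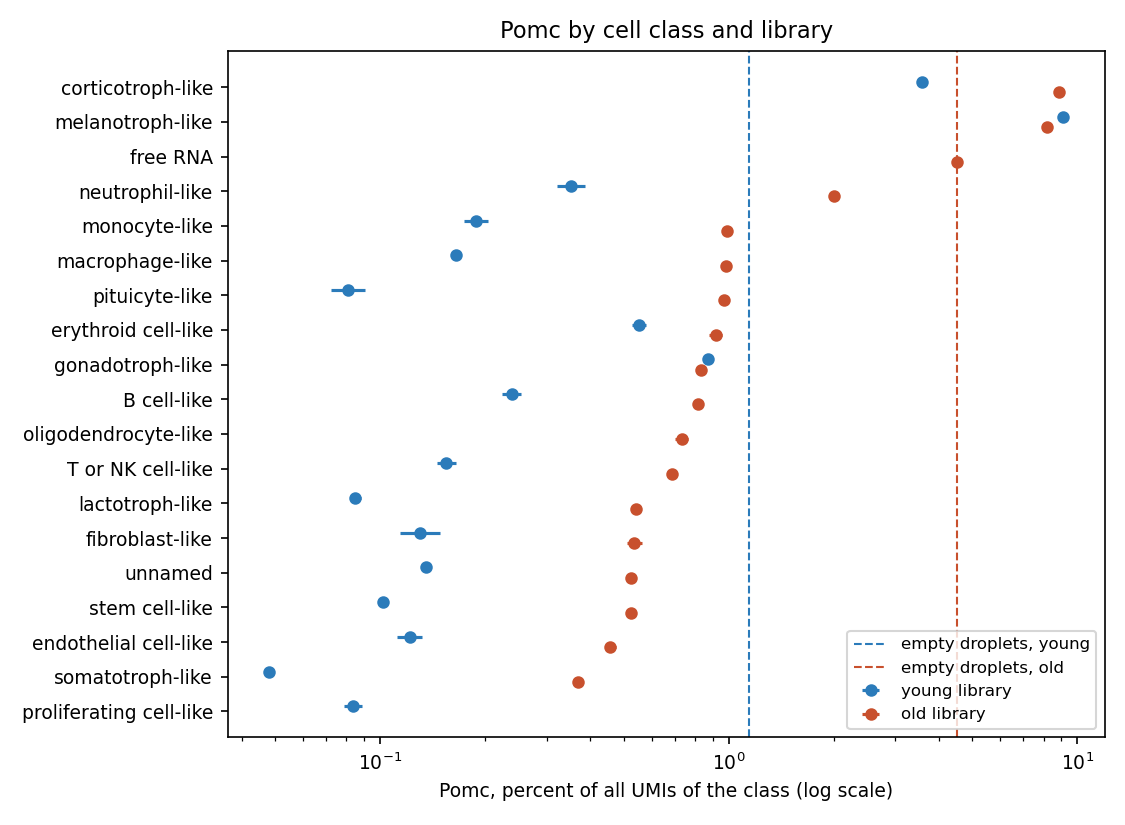
Pomc as a percent of all UMIs (log axis) in each class of at least 20 cells of a library, young in blue and old in red, with 95% counting intervals and dashed lines at the level of empty droplets. Young corticotroph-like cells lie at 3.59%, below old ones at 8.83% and both melanotroph-like values. The remaining classes, apart from the free RNA cluster, lie below the empty-droplet line of their own library.

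The distribution over single corticotroph-like cells differed at its low end, its median and its high end. Pomc made up a median of 1.34% of a young cell's UMIs, with 10% of cells below 0.439% and 10% above 6.69%. The old median was 4.82%, with the same limits at 1.47% and 17.6%. Of young corticotroph-like cells 496 (39.5%) had less than 1% Pomc, against 5 (1.62%) of old ones. In T or NK cell-like cells, which are not a source of Pomc, these shares were 99.3% (young) and 79.2% (old). The limit of 1% thus lies within the range of such cells in the old library. The part of free RNA in the shares of corticotroph-like cells was not tested. More than 5% Pomc was found in 181 (14.4%) young and 148 (48.1%) old cells. Both libraries thus held low and high cells, and the distributions overlapped. Melanotroph-like cells had medians of 4.01% and 3.38%, with 18 (40.9%) young and 55 (35.7%) old cells above 5%.

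The clusters of the corticotroph-like class differed in Pomc in the same order at both ages. The median per cell was 0.631% (young) and 2.12% (old) in the Malat1-rich cluster, 1.58% and 6.11% in the largest one, and 2.52% and 10.5% in the Malat1-poor one. Pomc is itself part of a cell's UMIs and was not used in the clustering. Cells of the Malat1-rich cluster also had high mitochondrial shares, with medians of 11.4% and 10.7%, against 5.02% and 4.63% in the largest cluster. The part of RNA quality in this order was not tested.

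The Pomc difference depended on how many UMIs a corticotroph-like cell had, a split made after the data were seen. Among cells of 2000 to 5000 UMIs (477 young, 95 old) Pomc was at 28728 and 71043 CPM, a ratio of 2.47 (2.43 to 2.52), and among cells of 5000 to 10000 UMIs the ratio was 2.72 (2.69 to 2.75). From 10000 to 20000 UMIs (272 young, 93 old cells) it was 1.68 (1.67 to 1.70). Above that, 14 young and 43 old cells were at 156262 and 158181 CPM, a ratio of 1.01 (1.00 to 1.02). The deepest cells of both libraries were thus alike in Pomc, although the young ones were few and Pomc UMIs help to place a cell there. Without the cells of 20000 UMIs or more the ratio of the class was 2.20, and with every cell thinned to 2000 UMIs it was 2.55.

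**Figure D2:**
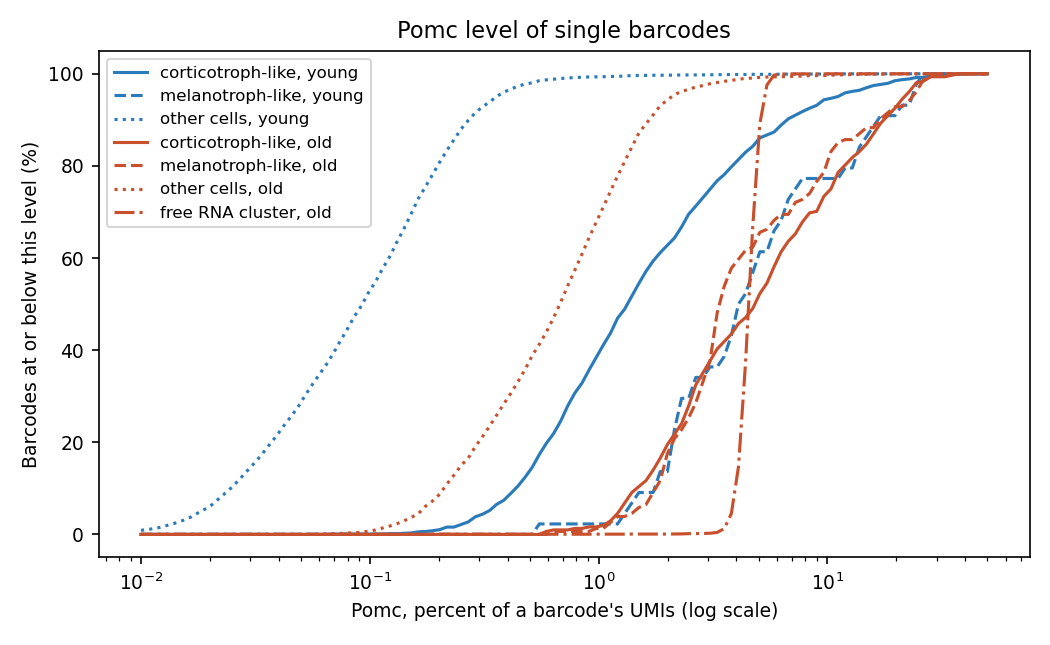
Cumulative share of barcodes (vertical axis, percent) at or below each Pomc level (horizontal log axis, percent of a barcode's UMIs) for corticotroph-like, melanotroph-like, other cells and the free RNA cluster. The old corticotroph-like curve lies to the right of the young one over most of its length, with medians of 4.82% and 1.34%, and the free RNA cluster rises steeply around its median of 4.53%.

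Pomc UMIs were also found in every other class, at levels below those of empty droplets of the same library and higher in the old one for most classes. Other cells together held Pomc at 0.0880% of young and 0.624% of old UMIs, a CPM ratio of 5.78 (5.73 to 5.84). In lymphocytes of the T or NK cell-like class, which are not a source of the hormone, Pomc was at 0.155% and 0.687% (4.35, 4.07 to 4.65). After thinning to 2000 UMIs, 95.2% of these young and 100% of these old cells still held a Pomc UMI, as did 100% of corticotroph-like cells, so shares of cells do not separate the classes for Pomc. Median depths of the T or NK cell-like cells were 3998 and 5418 UMIs. Somatotroph-like cells, the growth hormone producers, were at 0.0481% and 0.369%.

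Growth hormone transcripts (Gh), from another cell type, give a yardstick for classes that make neither hormone. Empty droplets held 2.82 (young) and 15.6 (old) Pomc UMIs per 100 Gh UMIs. Immune classes together were at 2.39 and 14.6, which is 0.847 and 0.935 times the empty-droplet value, and T or NK cell-like cells at 2.09 and 14.1. Macrophage-like cells were at 2.35 and 16.6. Stem cell-like cells were at 2.32 and 10.9, and old B cell-like cells at 7.66, further below the empty-droplet value. Pomc and Gh thus stood near the ratio of free RNA in immune cells together, with single classes on either side of it. Corticotroph-like cells held 75.7 and 301 Pomc UMIs per 100 Gh UMIs, 26.9 and 19.3 times the empty-droplet value, and melanotroph-like cells 146 and 130, which is 51.8 and 8.37 times. By the same yardstick, free RNA would amount to 0.134% (young) and 0.457% (old) of Pomc over the corticotroph-like class, beside the 3.59% and 8.83% measured. These are averages of the class. Its Malat1-rich cluster held more Gh, at 10.9% and 7.01% of UMIs against 4.74% and 2.93% over the class. Median Pomc in that cluster was 0.631% and 2.12%, and the part of free RNA there was not tested. Gonadotroph-like cells, which make the gonadotropins, were above the empty-droplet value at 11.5 and 24.4 Pomc UMIs per 100 Gh UMIs. More than 5% Pomc was held by 4 of 64 young and 2 of 35 old ones. Whether those few barcodes hold more than 1 cell was not tested.

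**Figure D3:**
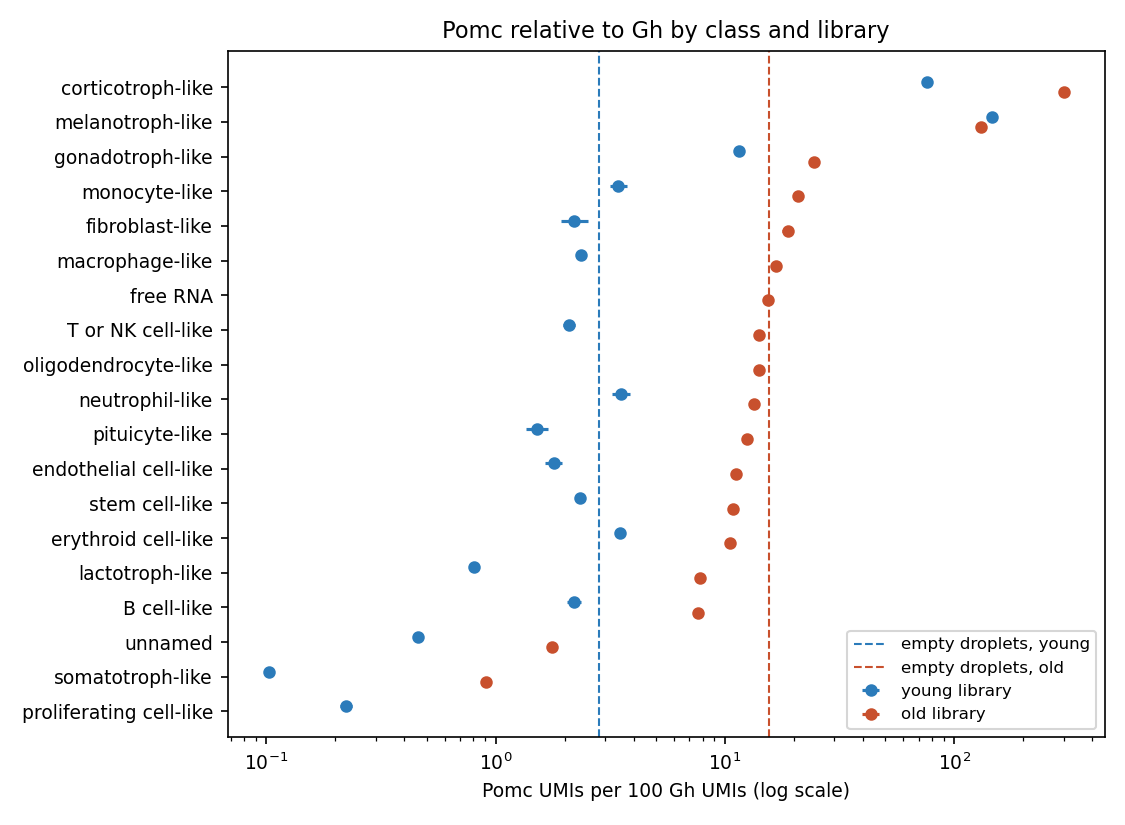
Pomc UMIs per 100 Gh UMIs (log axis) in each class of at least 20 cells of a library, young in blue and old in red, with 95% counting intervals and dashed lines at empty droplets (2.82 and 15.6). Macrophage-like cells (2.35 and 16.6) lie near the dashed line of their own library, while corticotroph-like (75.7 and 301) and melanotroph-like cells (146 and 130) lie far to the right.

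Most Pomc UMIs of both libraries were outside the kept cells of the producing classes, and more so in the old one. Of all 1007781 Pomc UMIs of the young library, 32.1% were in corticotroph-like cells, 2.35% in melanotroph-like cells, 4.79% in empty droplets and 36.2% in barcodes of 500 to 900 UMIs. The old library held 5235169 Pomc UMIs, with 5.78% in corticotroph-like and 2.09% in melanotroph-like cells, 13.9% in the free RNA cluster, 23.2% in empty droplets and 9.51% in barcodes of 500 to 900 UMIs. The total was thus larger in the old library, from which fewer corticotroph-like and more melanotroph-like cells were kept.

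Tbx19, the lineage factor, was highest in corticotroph-like cells and slightly lower there in the old library. Its level was 262 CPM (251 to 274, from 2025 UMIs) in young and 219 CPM (202 to 237, from 620 UMIs) in old corticotroph-like cells, for which old over young was 0.834 (0.761 to 0.913). Over the genes with at least 20 UMIs in this class, 58.9% were higher and 41.1% lower in the old library by any amount. The ratio stayed below 1 under all 19 alternative settings, from 0.788 to 0.883, and in each of the 3 clusters, at 0.720 to 0.866. Of the clusters, only the largest had an interval that leaves out 1 (0.785 to 0.954). By depth the ratio ran from 0.644 (5000 to 10000 UMIs, 0.509 to 0.805) to 0.988 (10000 to 20000 UMIs, 0.863 to 1.13). In every depth range but that of 5000 to 10000 UMIs the interval includes 1. Over the class as a whole, Tbx19 and Pomc thus differed between the ages in opposite directions.

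In melanotroph-like cells Tbx19 was lower than in corticotroph-like cells of the same library. Its level was 60.7 CPM (31.4 to 106) in the young library from 12 UMIs and 102 CPM (83.8 to 124) in the old library from 106 UMIs. Corticotroph-like cells were thus 4.32 (2.47 to 8.38) times as high in the young and 2.14 (1.74 to 2.65) times as high in the old library, and this order held under the 17 alternative settings. The old over young ratio in melanotroph-like cells, 1.69 (0.926 to 3.37), had an interval that includes 1, and it was 0.965 with a mitochondrial limit of 25% and 1.06 with thinned cells. Per UMI the class held more Tbx19 than other cells, at 4.50 and 8.27 CPM, and than T or NK cell-like cells, at 5.22 and 7.66. Empty droplets were at 67.8 and 49.1 CPM. After thinning to 2000 UMIs, a Tbx19 UMI was found in 33.4% (30.8 to 36.1) of young and 27.9% (23.0 to 33.3) of old corticotroph-like cells. It was found in 2 of 44 and 22 of 154 (14.3%) melanotroph-like cells, and in 0.680% and 1.79% of T or NK cell-like cells. Without thinning the shares in corticotroph-like cells were 66.0% and 66.2%.

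Crhr1, the receptor through which the hypothalamus drives ACTH release, followed Tbx19. It was at 139 CPM (131 to 147, from 1071 UMIs) in young and 114 CPM (102 to 128, from 324 UMIs) in old corticotroph-like cells, for which old over young was 0.824 (0.726 to 0.934). This value was 0.782 to 0.926 under the alternative settings and 0.765 to 0.873 in the 3 clusters, below 1 in all of them. Of the clusters, only the largest had an interval that leaves out 1 (0.711 to 0.942). Within ranges of depth the ratio was 0.785 to 0.951, each with an interval that includes 1. After thinning, 20.2% (18.0 to 22.5) of young and 17.5% (13.5 to 22.2) of old corticotroph-like cells held a Crhr1 UMI, beside 0 of 147 and 1.19% of T or NK cell-like cells, where 0 allows up to 2.04%. Without thinning these shares were 52.3% and 53.6% in corticotroph-like cells.

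Melanotroph-like cells held little Crhr1. There were 2 UMIs in 44 young cells, 10.1 CPM (1.23 to 36.6), and 18 UMIs in 154 old cells, 17.4 CPM (10.3 to 27.5). The corticotroph-like level was 13.7 times (3.79 to 113) as high in the young and 6.58 times (4.10 to 11.2) as high in the old library. Empty droplets stood at 29.1 and 26.9 CPM, above the melanotroph-like level, and T or NK cell-like cells at 1.74 and 6.57. Gh took 6.24% (young) and 6.28% (old) of UMIs in melanotroph-like cells, against 40.5% and 28.9% in empty droplets. How much of the melanotroph-like Crhr1 signal is free RNA was not tested on its own. The old over young ratio in this class was 1.72 (0.411 to 15.3) and is not distinguishable from 1 at this depth.

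Avpr1b, the vasopressin receptor, had the fewest UMIs of the 4 and was found mainly in corticotroph-like cells. Of the Avpr1b UMIs in kept barcodes, 90.6% (250 of 276) in the young and 74.2% (147 of 198) in the old library were in this class, and none were in melanotroph-like cells. A count of 0 among 44 young and 154 old melanotroph-like cells allows a share of cells with a UMI of up to 6.82% and 1.95%. Taking 3 UMIs per library as the limit, 15.2 and 2.90 CPM, corticotroph-like cells were at least 2.13-fold higher in the young and at least 17.9-fold higher in the old library. Other cells were at 0.574 and 1.46 CPM and empty droplets at 5.54 and 4.10.

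The Avpr1b level of the whole corticotroph-like class was higher in the old library, but the difference was seen in deep cells and not in shallow ones. It was 32.4 CPM (28.5 to 36.7) in young and 51.9 CPM (43.9 to 61.0) in old cells, a ratio of 1.60 (1.30 to 1.97). In cells of 2000 to 5000 UMIs the ratio was 1.13 (0.377 to 2.86) and in those of 5000 to 10000 UMIs 0.972 (0.538 to 1.64). It was 1.71 (1.24 to 2.34) in cells of 10000 to 20000 UMIs and 2.66 (1.15 to 7.58) above, where the young value rests on 6 UMIs in 14 cells. With all cells thinned to 2000 UMIs the ratio was 1.02 (0.552 to 1.79), and the share of cells with a UMI was 4.85% (3.73 to 6.19) in young and 6.17% (3.75 to 9.47) in old cells. Unthinned shares were 13.5% and 24.0%, and 0 of 147 young and 1 of 168 old T or NK cell-like cells held an Avpr1b UMI. By cluster the ratio was 1.69 in the largest and in the Malat1-rich one, and 0.384 (0.00852 to 2.99) in the Malat1-poor one, from 7 young and 1 old UMIs.

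**Figure D4:**
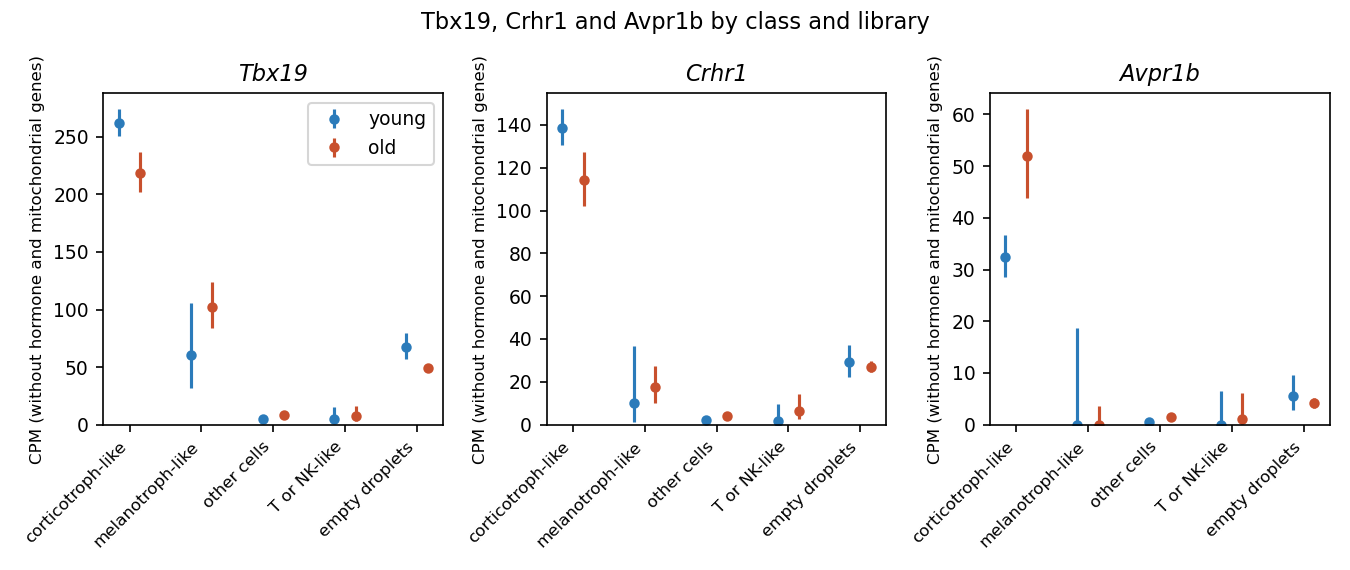
CPM of Tbx19, Crhr1 and Avpr1b in corticotroph-like, melanotroph-like, other and T or NK cell-like cells and in empty droplets, young in blue and old in red, with 95% counting intervals. Corticotroph-like cells are highest for each gene, with Tbx19 at 262 and 219, Crhr1 at 139 and 114 and Avpr1b at 32.4 and 51.9 CPM.

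The 2 receptors were seldom found in the same corticotroph-like cell at a fixed depth of 2000 UMIs. Both were detected in 10 of 1257 young cells (0.796%) and 6 of 308 old cells (1.95%). The product of their shares was 0.981% and 1.08%, so the young count was slightly below it and the old one above, with few cells behind either. Crhr1 alone was detected in 244 young and 48 old cells, Avpr1b alone in 51 and 13, and neither in 952 (75.7%) and 241 (78.2%). A missing UMI at this depth does not show that a receptor is absent. Tbx19 and Crhr1 were detected together in 97 (7.72%) young and 13 (4.22%) old cells, beside products of 6.75% and 4.90%. Median Pomc in thinned young cells ran from 1.30% with neither receptor to 1.63% with both. In old cells it was 5.18% with both, 5.68% with Crhr1 alone, 3.05% with Avpr1b alone (13 cells) and 4.80% with neither.

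**Figure D5:**
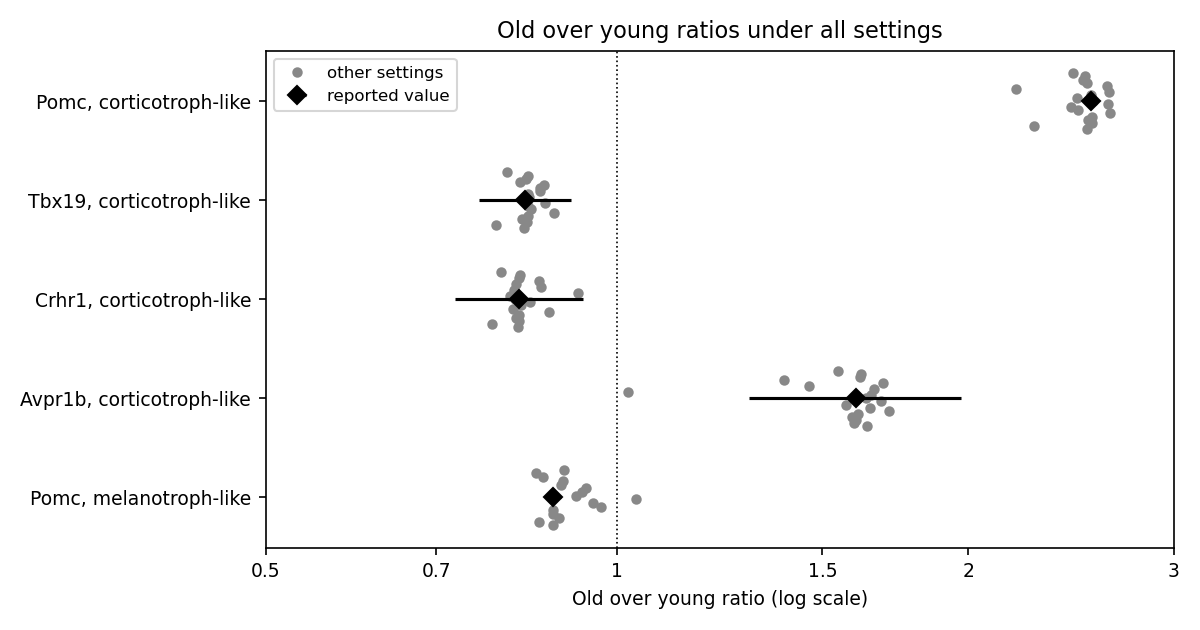
Old over young ratio (log axis) of the 4 genes in corticotroph-like cells and of Pomc in melanotroph-like cells, with the reported value as a diamond with its 95% counting interval and the alternative settings as grey points. Pomc in corticotroph-like cells lies at 2.20 to 2.65 and Tbx19 and Crhr1 lie below 1, while 1 setting brings Avpr1b to 1.02 and another brings Pomc in melanotroph-like cells to 1.04.

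Genes around the 4 members were read from 9 lists, with a median log2 ratio of 0.08 over all 12921 genes measured in corticotroph-like cells. The ligands themselves come from the hypothalamus, and 2 of 11 genes of the CRH and vasopressin families had enough UMIs in this class. These were Avp (90 and 14 UMIs) and Oxt (ratio 0.863, 0.561 to 1.30), transcripts of hypothalamic neurons, both below their level in empty droplets. Crh gave 1 UMI in young and 0 in old corticotroph-like cells.

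Downstream of Crhr1, 15 of 23 genes of cyclic AMP and protein kinase A signalling were higher in old corticotroph-like cells and 8 lower, with a median of 0.10, close to that of all genes. Over all genes measured in this class 58.9% were higher. Pde8a, a phosphodiesterase that breaks down cyclic AMP, was at 52.2 and 38.8 CPM, a ratio of 0.744 (0.597 to 0.921). Its direction was not stable, at 1.32 with cells thinned to 2000 UMIs. Crem, a cyclic AMP-responsive transcription factor, was at 104 and 87.9 CPM, and Creb1, which transmits the same signal, at 49.4 and 56.5. Adcy5, an adenylate cyclase, was at 54.7 and 49.8 CPM. The gene past 2-fold was Adcy3, another cyclase, with 33 young and 25 old UMIs.

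The Gq and phospholipase C list, downstream of Avpr1b, held larger differences. Of 13 genes measured 8 were higher and 5 lower, beside 58.9% higher over all genes, with a median of 0.25. At least 2-fold higher were 5 of the 13, beside 527 of the 12921 genes, and 3 of these 5 had 12 or 13 UMIs in the old library. Rgs4, a regulator that shortens G protein signals, was at 6.74 CPM in young and 65.7 CPM in old corticotroph-like cells (9.75-fold, 7.13 to 13.5), with empty droplets at 5.08 and 15.3. It was also higher in old melanotroph-like cells, with 1 UMI in young and 60 UMIs in old ones, a ratio of 11.4 (1.98 to 460). Rgs2, a relative that acts on Gq, was lower at 59.5 and 33.5 CPM, a ratio of 0.564 (0.447 to 0.705), below empty droplets at 133 and 135. Itpr2, an intracellular calcium channel, was at 35.1 and 75.2 CPM (2.14, 1.78 to 2.57) and Itpr1 at 131 and 176. The regulators of G protein signalling thus differed in opposite directions.

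Among transcription factors of the Pomc lineage and promoter, 7 of 19 were higher and 12 lower in old corticotroph-like cells, with a median of −0.20. Over all genes measured in this class 58.9% were higher. Under the alternative settings 5 to 9 of the factors were higher. The 3 lower by at least 2-fold, beside 324 of all 12921 genes, were the orphan nuclear receptors of the Nr4a family. Nr4a1, which carries the CRH signal to the Pomc promoter, was at 1001 and 430 CPM, a ratio of 0.429 (0.404 to 0.456), and Nr4a2 at 563 and 229, a ratio of 0.407 (0.374 to 0.442). Empty droplets held Nr4a1 at 455 and 324 CPM and Nr4a2 at 83.5 and 47.4. Junb, an AP-1 subunit, was at 9564 and 5040 CPM, a ratio of 0.527 (0.518 to 0.537), with empty droplets at 5912 and 5146. These genes respond to dissociation as well as to hormones, and the part of tissue handling was not tested. Etv1, an Ets family factor, was the gene at least 2-fold higher, at 58.7 and 123 CPM (2.09, 1.81 to 2.41), beside 23.1 and 40.1 in empty droplets.

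The melanotroph-like class differed from this pattern in several of the same factors, although no test compares the classes. There 9 of 16 factors were higher and 7 lower, with a median of 0.17, beside −0.07 over all 8593 genes measured. Jun was at 3820 and 8446 CPM, a ratio of 2.21 (2.05 to 2.38), beside 3312 and 2369 in empty droplets. Stat3, which relays cytokine signals, was at 96.1 and 208 CPM (2.16, 1.35 to 3.66), beside 104 and 78.2. In corticotroph-like cells the Stat3 ratio was on the other side of 1, at 0.830 to 0.968 under the alternative settings. Nr4a2 was at 379 and 260 CPM (0.684, 0.528 to 0.896), lower in the old library as in corticotroph-like cells. The young values rest on 44 cells.

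Of the glucocorticoid receptor and target genes, 4 of 13 were higher and 9 lower in old corticotroph-like cells, with a median of −0.19 and none past 2-fold. Over all genes measured in this class 58.9% were higher. Nr3c1, the glucocorticoid receptor that carries the feedback, was at 508 and 408 CPM, a ratio of 0.804 (0.752 to 0.859). Dusp1, a phosphatase gene induced by glucocorticoids and by stress, was at 1131 and 576 CPM beside 1016 and 1065 in empty droplets, Per1, a clock gene, at 152 and 88.6, and Klf9 at 766 and 457. Nr3c1 separated the classes, with melanotroph-like cells at 60.7 and 75.3 CPM, 0.120 (0.0617 to 0.209) and 0.185 (0.145 to 0.232) times the corticotroph-like level. In melanotroph-like cells 8 of 10 genes of the list were higher and 2 lower, beside 45.2% of all genes higher. The count higher was 5 to 8 under the alternative settings. By at least 2-fold 1 was higher and 2 were lower, beside 516 and 406 of all 8593 genes. Dusp1 was at 739 and 1100 CPM and Nfkbia, an inhibitor of NF-kappa B, at 65.8 and 137. Nfkbia was below empty droplets, at 316 and 335 CPM, in both libraries.

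The convertases that cut the precursor were compared between the classes. Pcsk1, which releases ACTH, was at 96.5 and 236 CPM in corticotroph-like and 60.7 and 93.7 CPM in melanotroph-like cells. The melanotroph-like level was 0.629 (0.324 to 1.11) times the corticotroph-like one in the young library, not distinguishable from 1, and 0.397 (0.318 to 0.492) times in the old. Empty droplets held Pcsk1 at 54.4 and 73.0 CPM. Pcsk2, which cuts ACTH further and served to name the melanotroph-like cluster, was 249.5 (young) and 66.0 (old) times as high there as in corticotroph-like cells, at 2489 and 1865 against 9.98 and 28.2 CPM. Between the ages, 7 of 10 processing genes were higher and 3 lower in corticotroph-like cells, with a median of 0.11. Over all genes measured in this class 58.9% were higher, with a median of 0.08. Without the cells of 20000 UMIs or more, 4 of the 10 were higher. Pcsk1 was 2.44 times (2.20 to 2.72) and Pam, which amidates peptides, 1.80 times (1.65 to 1.96) as high in the old library. Pcsk1n, an inhibitor of the Pcsk1 product, was lower at 2594 and 1702 CPM (0.656, 0.636 to 0.677), beside 3346 and 3167 in empty droplets. Pcsk2 had a ratio of 2.83 in these cells, with both levels below those of empty droplets, at 42.9 and 153 CPM. Pam was below them too, at 326 and 443. In melanotroph-like cells 4 of 9 were higher and 5 lower, beside 45.2% of all genes higher. There Pcsk2 had a ratio of 0.749 (0.678 to 0.829) and Pam a ratio of 1.55 (1.22 to 1.98).

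Genes of LIF and IL-6 signalling, cytokines that act on Pomc through Stat3, were 4 higher and 4 lower of 8 in corticotroph-like cells (median 0.11). Over all genes 58.9% were higher in this class and 45.2% in melanotroph-like cells. Lifr, the LIF receptor, was at 38.9 and 53.7 CPM, Il6ra, the IL-6 receptor, at 174 and 141, and Stat3 at 235 and 205. In melanotroph-like cells 5 of 7 were higher and 2 lower (median 0.68), with Socs3, the feedback inhibitor of the pathway, at 359 and 627 CPM (1.74, 1.36 to 2.26), beside empty droplets at 601 and 744. The median there is above that of all genes, and 5 of the 7 genes had fewer than 20 UMIs in the young library.

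Of the inhibitory receptors, Drd2, the dopamine receptor of melanotrophs, was at 197 and 144 CPM in melanotroph-like cells, a ratio of 0.729 (0.509 to 1.07) that is not distinguishable from 1. It was 190 (87.7 to 472) and 18.5 (11.8 to 30.4) times as high there as in corticotroph-like cells, which held 8 young and 22 old UMIs at 1.04 and 7.77 CPM, below empty droplets at 8.31 and 33.4. Gabbr1, a GABA receptor subunit, was at 62.7 and 54.7 CPM in corticotroph-like cells, where 1 of 4 genes was higher and 3 were lower. In melanotroph-like cells 0 of 3 were higher. Over all genes 58.9% were higher in corticotroph-like and 45.2% in melanotroph-like cells. Of the melanocortin receptors and their partners, Mrap2, a receptor accessory protein, was measured, with 66 young and 23 old UMIs in corticotroph-like cells and 4 and 30 in melanotroph-like cells.

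Genes were ranked by how closely their level followed each member over 28 profiles, from 14 named classes in each library. The measure was Pearson's r of log2(CPM + 5) over 13052 genes, a description in which the profiles of a library share its free RNA and depth. Pomc was followed most closely by Plch2 (r = 0.84), Egr4 (0.83), Sv2b (0.82), Nol4 (0.80) and Mcub (0.80). Tbx19 stood at rank 8 for Pomc (r = 0.79), Crhr1 lower (0.66) and Avpr1b at rank 837 (0.49), and melanotroph-like cells, high in Pomc and low in both receptors, are among the profiles. For Tbx19 the nearest were Alpk2 (0.90), 6330411D24Rik (0.90), Galnt9 (0.88), Crhr1 (0.87) and AW551984 (0.87). For Crhr1 they were Alpk2 (0.91), Etnppl (0.89), Qrfpr (0.88), Tbx19 (0.87) and AW551984 (0.85). Avpr1b was nearest to Cdh8 (0.88), Fam89a (0.87), Gpc5 (0.87), Qrfpr (0.85) and Cplx3 (0.85), of which Cdh8, Gpc5 and Cplx3 had served, like Egr4, to name corticotroph-like cells.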

How the data were processed

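Single-cell RNA libraries of 1 pool of 10 pituitary glands per age were deposited as raw UMI counts per gene and barcode. The submitters' processing notes name Cell Ranger 6.0.2 and the GRCm39 build as what the authors used, and the file headers name another Cell Ranger version. The deposited counts list 2377253 young and 3445643 old barcodes with no cell calling.

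Barcodes with at least 2000 UMIs, at least 500 genes and at most 15% mitochondrial UMIs were kept, 9210 young and 9783 old. Scrublet was run at 0.8% doublets per 1000 barcodes. Its automatic threshold called 206 and 11, so 679 and 766 barcodes were removed instead, those scoring highest up to the rate above. Both libraries were clustered together without the 4 genes, using 3000 variable genes, 40 principal components, 15 neighbours and Leiden resolution 1. Clusters were named from marker lists of 20 classes. The score of a class was its markers' mean log2 fold against the median of the clusters (5 CPM added). A name needed a score of 1 or more, 0.5 above the next class, 3 or more detected markers and 1 among the 20 leading genes. A correlation of 0.95 with empty droplets defined free RNA. Kept barcodes had medians of 6317 (young) and 3157 (old) UMIs.

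Sums of UMIs over the cells of a class in 1 library were scaled, as CPM, to the UMIs without hormone (Gh, Prl, Pomc, Cga, Lhb, Fshb and Tshb) and mitochondrial genes. Ratios have exact conditional Poisson intervals, levels exact Poisson and shares exact Clopper-Pearson intervals, at 95%. A count of 0 was given a limit of 3 counts. The ratio and its interval were tested on simulated data. No test was run, since cells of 1 library are not replicates. Cells were thinned to 2000 UMIs for shares and co-detection, and no cell was left out by this.

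The members and gene lists were chosen with earlier results of these data known. List genes were measured with at least 20 UMIs in a class. Named were Pcsk1, Pcsk2, Nr3c1 and Drd2 and, in each list, up to 4 genes with the largest log2 ratio (0.5 UMI added) among those with 50 UMIs and 50 CPM where higher. Other genes named from lists were chosen after their values were seen. Of the genes this rule names, 1 is not reported here. For likeness, genes with at least 200 UMIs over classes of at least 30 cells in each library were used and the 5 with the highest r were named. Promoters came from RefSeq tables, and the planned protein sequence was not used here. Alternatives covered filters, doublets, clustering, naming, scaling, free RNA, depth and cluster weights. Software was scanpy 1.11.5, leidenalg 0.10.2, igraph 0.11.9 and scipy 1.17.1 in Python 3.11.15.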

Additional observations from a re-analysis of the deposited data

Results flagged for a closer look

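Pomc differed between the ages in opposite directions in the 2 classes that make it, with an old over young ratio of 0.882 (0.870 to 0.895) in melanotroph-like and 2.55 (2.53 to 2.56) in corticotroph-like cells. The difference between these ratios was not tested, since each age has 1 library. The melanotroph-like direction turned with a mitochondrial limit of 25%, and the corticotroph-like ratio was near 1 in the deepest cells.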

How the results depend on the processing

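Alternatives changed 1 choice at a time. Pomc in corticotroph-like cells stayed higher in the old library under all 19 of them. Its ratio was 2.46 with all UMIs as the total, 2.52 and 2.51 with free RNA of barcodes of at most 100 or of 500 to 900 UMIs subtracted, 2.53 as the mean of cells, 2.48 and 2.48 with minimums of 1000 UMIs or 800 genes, 2.63 and 2.45 with mitochondrial limits of 10% or 25%, 2.65 without doublet removal, 2.53 at resolution 2 and 2.28 with each library clustered alone. With choices added after seeing the data it was 2.63 in the deepest cluster, 2.64 with old clusters given their young weights, 2.20 in cells of fewer than 20000 UMIs and 2.53 with naming that left out Tnnt1 and Tnni3.

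Pomc in melanotroph-like cells was at 0.901 with all UMIs, 0.852 and 0.865 with the 2 subtractions, 0.899 as the mean of cells, 0.895 with thinned cells (added after seeing the data), 0.940 and 0.934 with minimums of 1000 and 3000 UMIs, 0.953 with 800 genes, 0.922 and, reversed, 1.04 with limits of 10% and 25%, 0.969 without doublet removal and 0.857 with each library alone. Avpr1b in corticotroph-like cells fell outside its counting interval with thinned cells, at 1.02, where 65 young and 16 old UMIs were left. Tbx19 and Crhr1 in corticotroph-like cells stayed lower under all 19.

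The old melanotroph-like over corticotroph-like ratio of Pomc, 0.987, crossed 1 under 7 alternatives, at 1.02 and 1.03 with the subtractions, 1.00 with 1000 UMIs, 1.21 with a limit of 10%, 1.02 with 800 genes, 1.05 with each library alone and 1.02 without Tnnt1 and Tnni3. Of 51 ratios of named list genes, 35 had an interval that leaves out 1, and 34 of them kept their side of 1 under every alternative. The exception was Pde8a, at 1.32 with thinned cells. Counts of list genes higher in the old library stayed within 1.5 times the reported count in 289 of 315 cases. The causes of these shifts were not tested. No paired analysis was possible because each age has 1 library and no test was made. Young melanotroph-like values rest on 44 cells, and intervals cover counting error only.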
